A study of Homo sapiens with 6 samples.

Results

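Non-coding RNAs whose genes carry small nucleolar RNAs (snoRNAs) in their introns were followed in PANC-1, a human cell line derived from a ductal adenocarcinoma of the pancreas. The members were every row of the gene table named SNHG plus a number (small nucleolar RNA host gene) together with GAS5, ZFAS1, DANCR and EPB41L4A-AS1, which gave 29 rows under 28 names out of 58735 rows, since SNHG28 stands on 2 rows. They were taken by name alone, although earlier results of these data were known when they were chosen. Wild-type PANC-1 cells had received conditioned medium (CM) in which macrophages and PANC-1 cells had been grown together, where those PANC-1 cells carried an empty overexpression vector (CM-Vector, 3 libraries) or overexpressed MLKL, the protein that ruptures the membrane in necroptosis (CM-MLKL, 3 libraries). The sequenced cells of both groups were wild-type and differed in the medium alone, and a time of 72 h was given for the co-culture. The comparison asked how medium from the MLKL co-cultures alters tumour cells that do not overexpress MLKL, and the study described 3 independent experiments.

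A host gene of this kind is transcribed and spliced like a messenger RNA, and its introns are trimmed into snoRNAs, which guide chemical modification of ribosomal and other RNAs. Box C/D snoRNAs guide 2'-O-methylation and box H/ACA snoRNAs guide pseudouridylation, while the related small Cajal body RNAs (scaRNAs) act on spliceosomal RNAs. The spliced host RNA itself encodes no long protein and, for well-studied hosts such as GAS5, is bound by ribosomes and removed by nonsense-mediated decay, so its level is sensitive to translation. Several hosts share with ribosomal protein genes a 5'-terminal oligopyrimidine start, in which the RNA begins with a C and a run of pyrimidines. The libraries were made from polyadenylated RNA and report the spliced hosts, not the mature snoRNAs.

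Start sequences are shown because they are a feature of these hosts that the choice of members did not use. Each window is RefSeq sequence (GRCh38.p14) around the annotated start, with 20 bases before it and 25 from it onwards, and capitals mark the unbroken run of C and T that begins at the start base.
SNHG5, chr6:85678709-85678753, minus strand: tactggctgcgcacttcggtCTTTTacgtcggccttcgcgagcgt
ZFAS1, chr20:49278622-49278666, plus strand: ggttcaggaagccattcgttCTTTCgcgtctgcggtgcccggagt
SNHG19, chr16:2155334-2155378, minus strand: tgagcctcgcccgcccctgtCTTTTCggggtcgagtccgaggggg
SNHG4, chr5:139274081-139274125, plus strand: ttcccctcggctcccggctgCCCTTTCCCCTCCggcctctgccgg
SNHG12, chr1:28581849-28581893, minus strand: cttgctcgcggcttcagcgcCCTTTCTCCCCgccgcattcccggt
SNHG7, chr9:136728160-136728204, minus strand: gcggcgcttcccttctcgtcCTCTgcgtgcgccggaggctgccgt
SNHG1, chr11:62855861-62855905, minus strand: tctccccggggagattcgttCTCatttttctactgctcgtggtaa
SNHG17, chr20:38435304-38435348, minus strand: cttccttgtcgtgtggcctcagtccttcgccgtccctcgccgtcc
The first 5 begin with a C followed by at least 4 pyrimidines, SNHG7 falls just short of that length, SNHG1 has a shorter run, and SNHG17 starts with no pyrimidine.

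Depth was similar in all libraries, from 15838403 to 17885429 counts, and a count of 0 allowed up to 3 counts, or 0.168 to 0.189 counts-per-million (CPM) of the library total. CM-Vector replicate 1 stood apart: Pearson's r of its log2 CPM with the other libraries was 0.919 to 0.946 across genes, against 0.961 to 0.988 among the other 5. Results that rest on it are therefore also given without it. Of 6 markers of the PANC-1 cell, the epithelial keratin KRT8 (33279 to 64330 counts per library), the keratin KRT19 and the adhesion molecule EPCAM were lower in every CM-MLKL library (log2 fold changes -0.70, -0.79 and -0.89) and the mesenchymal filament VIM higher in every one (0.74). Of all genes tested, 5.5% were lower and 6.43% higher in every CM-MLKL library. These 4 markers had unadjusted p under 0.05 in the edgeR quasi-likelihood test, against 6.22% of all genes, and none passed the adjusted threshold. KRT18 and KRT7, also among the 6, had log2 fold changes below 0, overlapped between groups and did not reach that unadjusted p. The part of these markers in the results below was not tested. The leukocyte marker PTPRC and the macrophage markers MRC1 and CD86 were at 0 in all libraries. Only CD14 and ITGAM of 13 macrophage markers passed the filter on low counts. Both were lower in every CM-MLKL library (log2 fold changes -0.88 and -1.38), against 5.5% of all genes tested. Their unadjusted p was under 0.05 in the edgeR quasi-likelihood test, against 6.22% of all genes, and neither passed the adjusted threshold. ITGAM was at 3.67 CPM in CM-Vector replicate 1 and at 1.03 and 1.29 CPM in replicates 2 and 3. The median log2 fold change of the 2 was -1.13, and -0.73 without CM-Vector replicate 1. The summed level of the 13 was 10.02, 5.48 and 6.91 CPM in CM-Vector replicates 1, 2 and 3, and 4.20 to 5.11 CPM in CM-MLKL. Its part in the results below was not tested. Of 6 fibroblast markers only THY1 passed the filter. It was higher in every CM-MLKL library (log2 fold change 0.52, SE 0.362), as were 6.43% of all genes tested, and was not called. THY1 was at 4.16 CPM in CM-Vector replicate 1 and at 8.27 and 10.1 CPM in replicates 2 and 3. Without CM-Vector replicate 1 its log2 fold change was 0.26. In bulk RNA, fewer cells of a type and less RNA per cell cannot be told apart.

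The 29 rows together held 0.182%, 0.235% and 0.204% of all counts in CM-Vector replicates 1, 2 and 3, and 0.164%, 0.146% and 0.183% in CM-MLKL replicates 1, 2 and 3. The CM-Vector mean was 0.207% ± 0.0264 and the CM-MLKL mean 0.164% ± 0.0188 (SD, n = 3 each), and the groups overlapped, since CM-MLKL replicate 3 lay above CM-Vector replicate 1. SNHG5 and GAS5 alone made up 52.8% to 59.8% of these counts.

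Of the 29 rows, 23 passed the filter on low counts and 6 did not. The 6 were SNHG25 with 14 counts over all libraries, SNHG28 with 4 on one row and 0 on the other, SNHG18 and SNHG22 with 1 each, and SNHG27 with 0. These were too few to compare the groups. Levels of the 23 spanned from a mean of 1.009 CPM for SNHG10 to 539 CPM for SNHG5, both after TMM scaling (trimmed mean of M values). Genes are compared with each other only per kilobase of annotated exon (GENCODE 29, GRCh38), where all isoforms of a gene are merged, so hosts with many long annotated isoforms read low. On that scale SNHG5 was at 192 ± 38.8 CPM per kb, GAS5 at 142 ± 46.5, SNHG6 at 112 ± 22.6, ZFAS1 at 73.9 ± 18.7 and SNHG8 at 60.9 ± 10.2 (mean ± SD, n = 6 libraries). The ranges of neighbours in this order overlapped, and the first clear step lay after SNHG8: its lowest library was at 47.6 CPM per kb, above the highest of SNHG15 at 25.2. SNHG19 followed at 19.5 ± 12.7, the widest spread relative to its level among the hosts above 10 CPM per kb. Below SNHG19 and SNHG1 the order was EPB41L4A-AS1, SNHG16, SNHG7, SNHG17, SNHG3, DANCR, SNHG12 and SNHG11. A further step lay after SNHG11, whose lowest library was at 4.96 CPM per kb against 3.57 for the highest of SNHG9. SNHG14, a long host on chromosome 15, was last at 0.170 ± 0.0818 CPM per kb.

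No host RNA passed the test between CM-MLKL and CM-Vector in either direction (edgeR quasi-likelihood test, Benjamini-Hochberg adjusted p under 0.05 over 14046 genes). Among all genes tested 0.513% were called, 0.406% higher and 0.107% lower, and 0 of 23 lies near that background. The smallest adjusted p of a host was 0.526, for SNHG19, and 19 of 23 had an adjusted p of 0.99 or more. At an unadjusted p under 0.05 there were 2 hosts, ZFAS1 and SNHG19, both lower in CM-MLKL, which is 2 of 23 against 6.22% of all genes in either direction and 2.98% lower. DESeq2 gave 1 host at that level and limma-voom 2, and neither called any after adjustment.

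**Figure D1:**
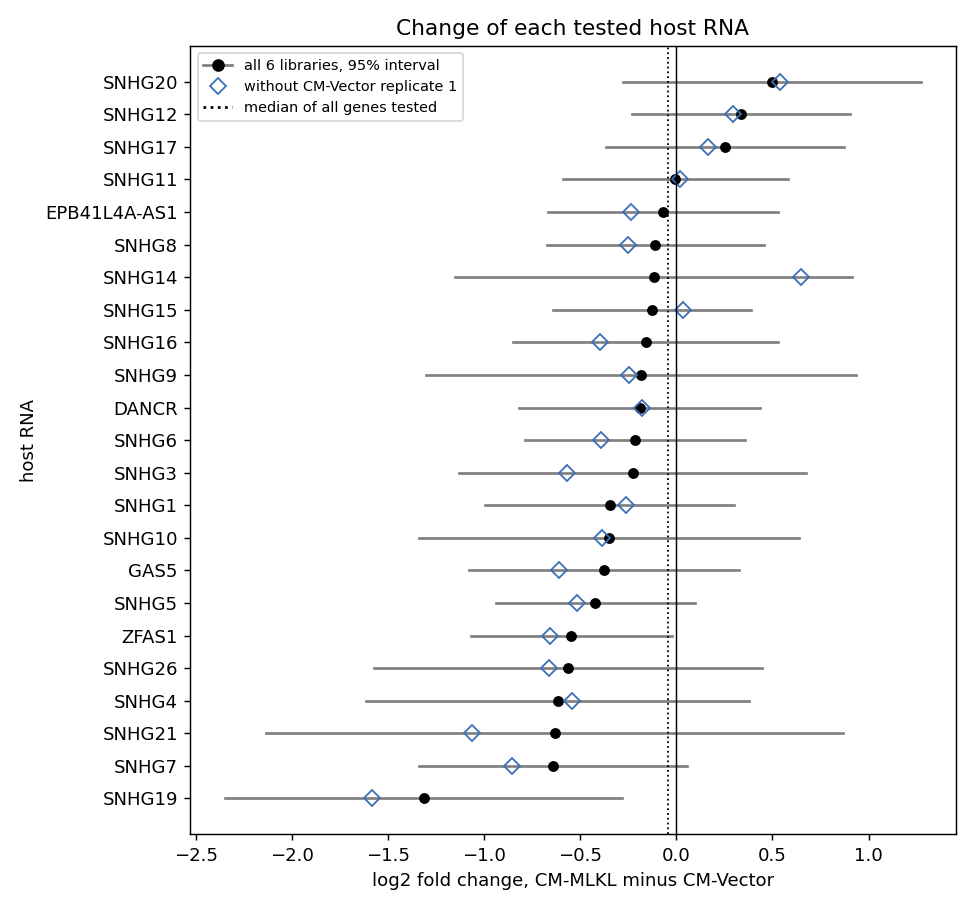
Log2 fold change (CM-MLKL minus CM-Vector, horizontal axis) of the 23 tested host RNAs (vertical axis), with all 6 libraries (black circles, bars are 95% intervals) and without CM-Vector replicate 1 (open diamonds); the dotted line is the median of all genes tested. Of the 23 values, 20 lie below 0, and only the bars of ZFAS1 and SNHG19 stay clear of it.

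The hosts leaned to one side without passing the test. The log2 fold change was below 0 for 20 of 23, from -1.31 for SNHG19 to 0.50 for SNHG20, against 55.5% of all genes tested, and the median was -0.22 against -0.04 for all genes. The size of this lean depended on single libraries. Without CM-Vector replicate 1 the count below 0 was 17 of 23 against 45.1% of all genes, and the median -0.39 against 0.05. Without CM-Vector replicate 2 the count was 15 of 23 against 53.9%, the median -0.11 against -0.04, and 0 hosts had an unadjusted p under 0.05. Without CM-MLKL replicate 3 the count was 19 of 23 against 57.9%, and the median -0.39 against -0.08. Hosts share libraries and are not independent of each other, so these counts describe 6 libraries and carry no test. For 11 of the 23 the unadjusted 95% interval lay within a 2-fold change in both directions, for 22 it left out a 2-fold rise, and for 11 it reached a 2-fold decrease or beyond.

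The groups did not overlap for 4 hosts. SNHG5, ZFAS1 and SNHG19 were lower in every CM-MLKL library than in any CM-Vector library (3 of 23, 13.04%, against 5.5% of all genes tested), and SNHG20 was higher in every one (1 of 23, 4.35%, against 6.43%). With CM-Vector replicate 1 left out and the rest rescaled, 9 hosts were lower throughout (39.1% against 16.2% of all genes): SNHG5, GAS5, ZFAS1, SNHG6, SNHG16, EPB41L4A-AS1, SNHG7, SNHG3 and SNHG19. SNHG12, SNHG14 and SNHG20 were then higher throughout (13.04% against 17.5%). With CM-Vector replicate 2 left out, SNHG5 and ZFAS1 alone were lower throughout (8.70% against 8.28%). For these 4 hosts, leaving out a library could bring the groups to overlap only through the rescaling. This happened for SNHG19, without CM-Vector replicate 2 and without CM-MLKL replicate 1. That SNHG5, ZFAS1 and SNHG20 stayed apart in every omission is therefore no further support for them. No host was called without CM-Vector replicate 1 either, where 0.755% of all genes were called lower and 1.44% higher, and the smallest adjusted p of a host was 0.0624, for SNHG19 (edgeR quasi-likelihood test).

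ZFAS1 and SNHG5, 2 abundant hosts of box C/D snoRNAs, were lower in every CM-MLKL library. ZFAS1 (antisense to ZNFX1, chr20:49278178-49295738) encloses SNORD12, SNORD12B and SNORD12C. It measured 156, 231 and 203 CPM in CM-Vector replicates 1, 2 and 3, and 125, 138 and 142 CPM in CM-MLKL replicates 1, 2 and 3. All 3 CM-MLKL libraries lay below the lowest CM-Vector library. The CM-MLKL level was 1.46-fold lower (log2 fold change -0.55, SE 0.236, 95% interval -1.07 to -0.02), with an adjusted p of 0.759 in the edgeR quasi-likelihood test. With 1 library left out, the log2 fold change ran from -0.66 (without CM-Vector replicate 1) to -0.41 (without CM-Vector replicate 2).

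SNHG5 (chr6:85660950-85678748), the host of SNORD50B, had the highest mean level per kilobase. Its level was 508, 716 and 628 CPM in CM-Vector and 435, 470 and 477 CPM in CM-MLKL. The CM-MLKL libraries sat close together, at 461 ± 22.5 CPM (SD, n = 3), below a CM-Vector mean of 617 ± 104. The log2 fold change was -0.42 (SE 0.233, interval -0.94 to 0.10), 1.34-fold lower, with an adjusted p of 0.946 (edgeR quasi-likelihood test), and it ran from -0.51 to -0.29 with 1 library left out.

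SNHG19 (chr16:2154797-2155358), a short host that encloses SNORD60, had the largest fold difference at a low level. It measured 5.24, 14.2 and 9.03 CPM in CM-Vector and 2.01, 5.18 and 4.27 CPM in CM-MLKL. The groups touched closely, with CM-Vector replicate 1 at 5.24 CPM just above CM-MLKL replicate 2 at 5.18 CPM. The level was 2.49-fold lower in CM-MLKL (interval 1.22 to 5.08, log2 fold change -1.31, SE 0.466), with an adjusted p of 0.526 (edgeR quasi-likelihood test). With 1 library left out the log2 fold change reached -1.59 for CM-MLKL replicate 2 and -0.89 for CM-Vector replicate 2. It starts opposite TRAF7, on the other strand, which was at 106 to 229 CPM in CM-Vector and 164 to 265 CPM in CM-MLKL.

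**Figure D2:**
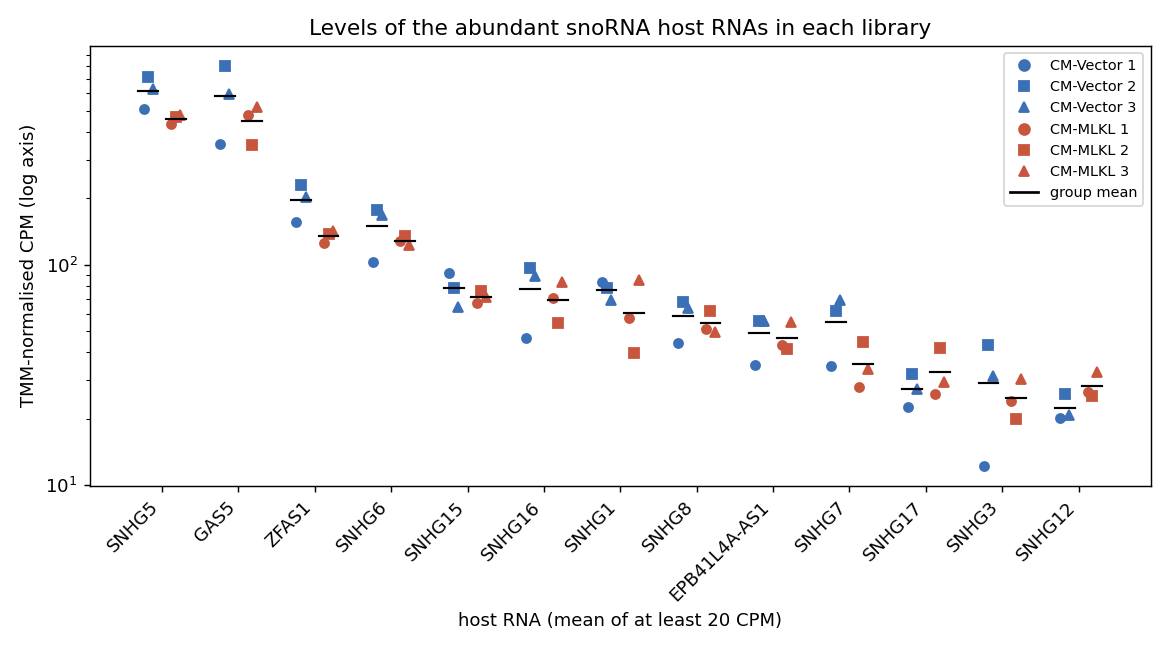
TMM-normalised CPM (vertical log axis) of the 13 host RNAs with a mean of at least 20 CPM (horizontal axis), with CM-Vector in blue, CM-MLKL in red, a marker shape for each replicate and black lines for the group means. ZFAS1 and SNHG5 are the hosts here whose groups do not overlap, and CM-Vector replicate 1 is the lowest blue point for most hosts.

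GAS5 (growth arrest specific 5, chr1:173863900-173868882), a well-studied target of nonsense-mediated decay, spread widely within the controls. Its 353, 800 and 596 CPM in CM-Vector enclosed the 477, 350 and 521 CPM in CM-MLKL but for the lowest value. The log2 fold change was -0.38 (SE 0.317, interval -1.08 to 0.33), less than the spread between replicates. It was -0.61 without CM-Vector replicate 1, -0.07 without CM-Vector replicate 2 and -0.22 without CM-MLKL replicate 2. GENCODE 29 places no separate snoRNA gene inside GAS5, so its snoRNAs have no rows here.

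SNHG6, the host of SNORD87, measured 103, 177 and 168 CPM in CM-Vector against 129, 135 and 123 CPM in CM-MLKL. SNHG16, which encloses SNORD1A, SNORD1B and SNORD1C, measured 46.6, 97.0 and 89.3 CPM against 70.9, 54.2 and 83.3 CPM. In both, CM-Vector replicate 1 was the lowest of all 6 libraries while replicates 2 and 3 were the highest, and the log2 fold changes of -0.22 and -0.16 had intervals that spanned 0. For SNHG6 the value was -0.39 without CM-Vector replicate 1, -0.06 without CM-Vector replicate 2 and -0.12 without CM-Vector replicate 3. SNHG1, which holds a cluster of box C/D snoRNAs from SNORD22 to SNORD30, measured 83.2, 78.7 and 69.4 CPM in CM-Vector and 57.3, 39.8 and 84.8 CPM in CM-MLKL. Here the CM-MLKL libraries spread more than the controls, from the lowest to the highest of all 6 (log2 fold change -0.35, interval -0.99 to 0.30), and the value was -0.11 without CM-MLKL replicate 2 and -0.66 without CM-MLKL replicate 3. SNHG1 starts opposite SLC3A2, the heavy chain of amino acid transporters, at 473 to 503 CPM in CM-Vector and 473 to 684 CPM in CM-MLKL.

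SNHG15, SNHG8 and EPB41L4A-AS1, hosts of box H/ACA snoRNAs, overlapped between groups. SNHG15, host of SNORA9, measured 91.9, 78.3 and 64.2 CPM in CM-Vector and 67.3, 76.3 and 71.1 CPM in CM-MLKL. SNHG8, host of SNORA24, measured 43.9, 68.0 and 63.3 CPM against 51.0, 61.8 and 49.5 CPM. EPB41L4A-AS1, which encloses SNORA13, measured 34.9, 55.8 and 55.6 CPM against 43.2, 41.3 and 54.7 CPM. In these 3 the CM-MLKL values lay inside the CM-Vector range, with log2 fold changes of -0.13, -0.11 and -0.07.

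SNHG7 (chr9:136721366-136728184), host of SNORA17A and SNORA17B, measured 34.6, 61.4 and 69.1 CPM in CM-Vector and 27.8, 44.7 and 33.5 CPM in CM-MLKL. It overlapped through CM-Vector replicate 1 alone, which lay below CM-MLKL replicate 2. The log2 fold change was -0.64 (SE 0.314, interval -1.34 to 0.06, adjusted p = 0.877, edgeR quasi-likelihood test), -0.86 without that library and -0.44 without CM-Vector replicate 3. FAM69B, which overlaps SNHG7 on the opposite strand, ran alongside it at 8.07, 25.4 and 23.3 CPM in CM-Vector and 12.3, 19.9 and 9.79 CPM in CM-MLKL. SNHG3, host of SNORA73A and SNORA73B, measured 12.2, 43.3 and 31.4 CPM against 24.0, 19.99 and 30.2 CPM. The gap inside the CM-Vector group was wider than the difference between groups (log2 fold change -0.23, SE 0.408). RCC1, which overlaps SNHG3 on the same strand, measured 60.05, 113 and 124 CPM in CM-Vector and 70.4, 71.0 and 71.1 CPM in CM-MLKL.

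SNHG17, SNHG12 and SNHG20 were the hosts with values above 0. SNHG17, host of SNORA71A, SNORA71B, SNORA71C and SNORA71D, measured 22.6, 31.9 and 27.1 CPM in CM-Vector and 25.9, 42.1 and 29.4 CPM in CM-MLKL. SNHG12, host of SNORA16A, SNORA44, SNORA61 and SNORD99, measured 20.1, 25.9 and 20.7 CPM against 26.5, 25.3 and 32.4 CPM. CM-MLKL replicate 2 of SNHG12 lay below CM-Vector replicate 2, so both hosts overlapped between groups, at log2 fold changes of 0.25 (SE 0.280) and 0.34 (SE 0.255). For SNHG17 the value was 0.03 without CM-MLKL replicate 2. SNHG20, which encloses SCARNA16, did not overlap, at 3.57, 4.35 and 2.58 CPM against 4.71, 4.98 and 5.14 CPM. Its log2 fold change was 0.50 (SE 0.350, interval -0.28 to 1.27) with an adjusted p of 0.999 (edgeR quasi-likelihood test). SNHG20 overlaps SEC14L1 on the same strand, which was at 111 to 159 CPM in CM-Vector and 133 to 173 CPM in CM-MLKL.

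The remaining tested hosts overlapped between groups. SNHG11, next to SNHG17 on chromosome 20, was the steadiest, at 16.4 ± 0.590 CPM in CM-Vector and 16.3 ± 2.73 CPM in CM-MLKL (SD, n = 3 each). DANCR, host of SNORA26 and named for its role in keeping progenitor cells undifferentiated, was at 14.6 ± 1.28 and 12.8 ± 2.70 CPM. SNHG4, SNHG26, SNHG9, SNHG21 and SNHG10 lay between means of 1.009 and 4.75 CPM, with log2 fold changes from -0.63 for SNHG21 to -0.19 for SNHG9 and SEs from 0.446 to 0.678. SNHG14, the transcript that carries the SNORD116 and SNORD115 clusters and runs antisense to UBE3A, measured 13.8, 5.07 and 4.11 CPM in CM-Vector and 7.29, 5.25 and 8.64 CPM in CM-MLKL. It was the member on which CM-Vector replicate 1 bore most: its log2 fold change was -0.12 with that library and 0.65 without it. UBE3A stood at 34.8 CPM in CM-Vector replicate 1 and at 19.2 to 26.5 CPM in the other 5 libraries.

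**Figure D3:**
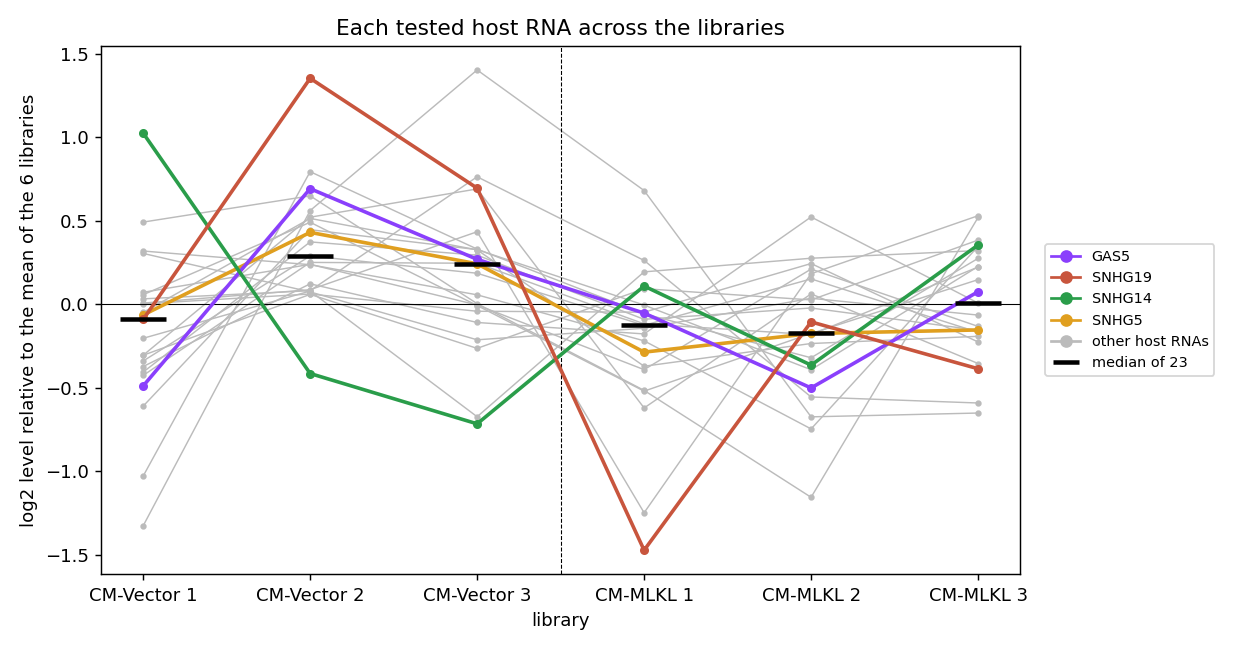
Log2 level of each of the 23 tested host RNAs relative to its own mean over the 6 libraries (vertical axis), by library (horizontal axis), with 4 hosts coloured, the others in grey, and black bars for the median of the 23. The medians of CM-Vector replicates 2 and 3 (0.29 and 0.24) are the highest, while CM-Vector replicate 1 (-0.09) lies among the CM-MLKL libraries (-0.17 to 0.01), and SNHG14 runs the other way in the CM-Vector group.

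Host levels differed by library as well as by group. CM-Vector replicate 1 was the lowest of its group for 15 of 23 hosts and CM-Vector replicate 2 the highest for 16 and the lowest for 0. Over all 6 libraries, CM-Vector replicate 2 was the highest for 12 hosts and CM-Vector replicate 1 the lowest for 8. Such counts were not made over all genes, and CM-Vector replicate 1 stood apart across genes. They are therefore not read as a trait of the hosts. Relative to the mean of all libraries, the median host stood at -0.09, 0.29 and 0.24 on the log2 scale in CM-Vector replicates 1, 2 and 3, and at -0.12, -0.17 and 0.01 in CM-MLKL replicates 1, 2 and 3. The median therefore separated CM-Vector replicates 2 and 3 from the other 4 libraries, CM-Vector replicate 1 included.

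The snoRNAs themselves were barely seen. GENCODE 29 places 135 snoRNA and scaRNA gene names (130 and 5) inside 26 of the 28 named hosts, 84 of them in SNHG14. Of these names, 115 had 0 counts in all libraries, and the other 20 held 235 counts in sum, against 192814 for the hosts. SNORD104, inside SNHG25, was the only one to pass the filter, with 12, 22 and 6 counts in CM-Vector and 6, 4 and 12 counts in CM-MLKL, more in sum (62) than its host (14). The groups overlapped, with a log2 difference of -0.81 ± 0.621 (SE) and, from the edgeR quasi-likelihood test, an adjusted p of 0.999. SNORA73B in SNHG3 held 49 counts and SNORA13 in EPB41L4A-AS1 held 23. Mature snoRNAs lack a poly(A) tail, and these counts say nothing of their levels.

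The sources do not say whether counting kept strand, so a stretch that a host shares with a neighbour could hold reads of either gene. ZNFX1, the antisense partner of ZFAS1, measured 165, 30.7 and 34.1 CPM in CM-Vector and 61.6, 39.4 and 53.7 CPM in CM-MLKL. It was several times higher in CM-Vector replicate 1 than in replicates 2 and 3. In that library ZFAS1 was the lowest of the CM-Vector group, but above every CM-MLKL library. ZBTB37, which overlaps GAS5 on the opposite strand, measured 5.53, 0.785 and 1.35 CPM against 1.21, 0.471 and 2.35 CPM, far below GAS5. RPS2, which starts opposite SNHG9, was at 4009 to 7620 CPM in CM-Vector and 4282 to 6362 CPM in CM-MLKL, against 0.574 to 1.97 CPM for SNHG9. TRNAU1AP beside SNHG12, SIL1 beside SNHG4 and GLRX5 beside SNHG10 had log2 fold changes of 0.02, -0.06 and -0.13. The other neighbours on a single row that passed the filter were SNRPN within SNHG14 (0.31) and those beside hosts that were not tested. These were CFAP45 (0.37) and AL590560.1 (0.12) at SNHG28, and ACAA2 (0.28) and MYO5B (-1.44) at SNHG22. MYO5B stood at 4.26, 0.785 and 1.35 CPM in CM-Vector replicates 1, 2 and 3, and at 0.804, 0.269 and 1.26 CPM in CM-MLKL. MATR3, which overlaps SNHG4 on the same strand, stands on 2 rows and was not compared (98 counts in sum). None of the neighbours compared was called (edgeR quasi-likelihood test).

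Start sequences were compared after the values had been seen. RefSeq gave a start for 24 of the members, and 6 of these began with a C followed by at least 4 pyrimidines, counted on the transcribed strand alone, against 4.07% of all 35116 starts in the table. Among the protein-coding snoRNA hosts listed below, 15 of 32 starts (46.9%) did so. Of the 6, SNHG18 was not tested, and SNHG5, ZFAS1, SNHG19, SNHG4 and SNHG12 had a median log2 fold change of -0.55, with 4 of 5 below 0. The 15 tested hosts with another start had a median of -0.19, with 13 below 0. Among all genes tested that had a RefSeq start, the 554 with such a start and the 9601 without both had a median of -0.04. Of these, 55.4% and 54.7% were below 0. All 3 hosts that were lower in every CM-MLKL library carry this start in RefSeq, but SNHG12 carries it and lay above 0. Annotated starts can differ from those used in these cells. For GAS5 the RefSeq start does not begin this way, whereas 6 of its 29 GENCODE transcripts do. The same holds for SNHG16 (2 of 8), SNHG3 (1 of 3), SNHG8 (1 of 5), SNHG1 (1 of 25) and SNHG11 (1 of 15). In SNHG5 and ZFAS1, 3 of 23 and 3 of 10 transcripts begin this way. The tested hosts SNHG6, SNHG9 and SNHG15 had no RefSeq start and were left out of this comparison. In SNHG6, 3 of 5 transcripts begin this way, and in SNHG9 and SNHG15 none does. The split of hosts by start therefore depends on the annotation used.

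The proteins that work with these RNAs were read from lists of well-known factors. Of the 8 core proteins of box C/D and H/ACA particles, 0 passed the test in either direction, with a median log2 fold change of -0.11 (0.06 without CM-Vector replicate 1). NOP58, a core box C/D protein, measured 93.8, 19.6 and 15.7 CPM in CM-Vector and 21.9, 13.7 and 35.1 CPM in CM-MLKL, with CM-Vector replicate 1 far above the rest. The box C/D protein NOP56 had the same outlying library, at 159 CPM against 46.8 to 72.7 CPM in the others, and DKC1, the pseudouridine synthase, ranged from 63.9 to 118 CPM. The core proteins did not move as one in that library: 4 of the 8 (these 3 and GAR1) were at their highest there, and 4 (FBL, NHP2, NOP10 and SNU13) at their lowest. FBL, the box C/D methyltransferase, measured 1953 CPM there and 2781 to 4495 CPM in the other 5 libraries.

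Of 13 factors that assemble and traffic these particles, 0 passed, with a median of -0.02 (0.14 without CM-Vector replicate 1). RUVBL2, an ATPase of the assembly machinery, measured 294 ± 102 CPM in CM-Vector and 227 ± 51.4 CPM in CM-MLKL, ZNHIT3 60.2 ± 16.3 and 49.9 ± 1.90 CPM, and TGS1, the cap hypermethylase, 7.24 ± 9.12 and 4.39 ± 1.47 CPM (SD, n = 3 each). Of 14 nonsense-mediated decay factors, 0 passed, with a median of -0.27 that was -0.02 without CM-Vector replicate 1. The exon junction protein MAGOH was lower in every CM-MLKL library (1 of 14, 7.14%, against 5.5% of all genes), at 76.7, 81.6 and 86.6 CPM against 60.7, 69.3 and 60.2 CPM, a log2 difference of -0.37 ± 0.219 (SE) with an adjusted p of 0.999 in the edgeR quasi-likelihood test. Its partner RBM8A had the same log2 fold change of -0.37 (SE 0.265) and SMG9 one of -0.34 (SE 0.281), and both overlapped.

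The protein-coding hosts of snoRNAs, mainly ribosomal protein and translation factor genes, lay on the same side as the non-coding hosts. None of 43 passed the test (edgeR quasi-likelihood test, 0 at an unadjusted p under 0.05), and 33 were below 0, against 55.5% of all genes tested. The median was -0.25 with all libraries and -0.35 without CM-Vector replicate 1. The core protein NOP56 is also on this list. The groups did not overlap for 1 of 43 in each direction (2.33%, against 5.5% of all genes lower and 6.43% higher). RPL37 was lower in every CM-MLKL library, at 1442, 1844 and 2002 CPM against 1327, 1405 and 1441 CPM, and RPL17 higher in every one, at 18.99, 23.5 and 22.5 CPM against 24.3, 25.1 and 25.6 CPM. RPS12 measured 1773, 2715 and 2631 CPM against 1764, 1930 and 1739 CPM. In RPL37 and RPS12, CM-Vector replicate 1 was level with the CM-MLKL libraries, as it was for the median non-coding host. PPAN, a ribosome assembly factor, was at 3.58 ± 0.670 and 2.34 ± 1.07 CPM.

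Long non-coding RNAs that host no snoRNA served as a comparison of RNA type. Of 16 listed, 15 were tested and 1 passed: H19, an imprinted RNA, fell from 7.38 ± 1.85 CPM to 0.599 ± 0.221 CPM, a log2 difference of -3.61 ± 0.452 (SE) with an adjusted p of 0.00661 in the edgeR quasi-likelihood test, a call that was lost without CM-MLKL replicate 2. The groups did not overlap for 2 of the 15, H19 and CRNDE, both lower in CM-MLKL (13.3%, against 5.5% of all genes). None was higher throughout (0%, against 6.43%). CRNDE measured 11.8, 12.2 and 15.5 CPM against 10.3, 9.89 and 11.1 CPM. The share lower throughout was thus close to that of the snoRNA host RNAs (13.04%). Of the 15, 12 were below 0, against 55.5% of all genes tested. Their median was -0.44, and -0.05 without CM-Vector replicate 1. NORAD, at 114 CPM in that library and 34.1 to 40.8 CPM in the other 5, and DLEU2, with a log2 fold change of -0.74 (SE 0.404), followed H19 by p-value. Leaving out the library thus moved this median and that of the decay factors towards 0, and those of the non-coding and protein-coding snoRNA hosts further below it.

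**Figure D4:**
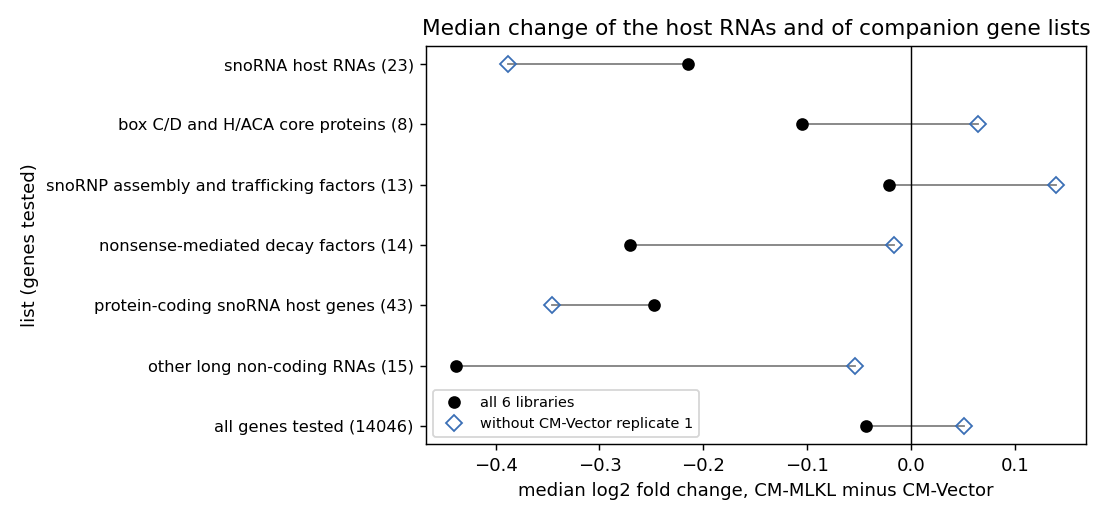
Median log2 fold change (CM-MLKL minus CM-Vector, horizontal axis) of the host RNAs, the companion lists and all genes tested (vertical axis, number tested in brackets), with all 6 libraries (circles) and without CM-Vector replicate 1 (diamonds). The medians of the non-coding and protein-coding snoRNA hosts are -0.22 and -0.25 with all libraries and -0.39 and -0.35 without it, while those of the other lists lie between -0.05 and 0.14 without it.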

How the data were processed

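Wild-type PANC-1 cells were profiled in 6 libraries, 3 per group. Following the study's methods, mRNA was enriched on oligo(dT) beads, and StringTie assembled the mapped reads. The sources used here do not state the genome build, the aligner, the counting tool or how strand was treated. The values deposited by the authors are raw counts per gene, whole and not normalised. The authors used DESeq2 for their own comparison.

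Of 58735 names, 58708 matched GENCODE 29. The other 27 look like dates and held 0.155% of counts, which stayed in the totals. Host coordinates and exon lengths come from GENCODE 29 (GRCh38) by name, and start sequences from RefSeq (GRCh38.p14), with 24 names matched. Inner snoRNA genes lie within the host's span, and neighbours overlap it or start within 1000 bases.

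Low genes were removed with filterByExpr of edgeR 4.0.16 in R 4.3.3 (minimum count 10, minimum total 15), and TMM set the scaling. Groups were compared two-sided by the edgeR quasi-likelihood test on group alone, with Benjamini-Hochberg adjustment over the 14046 genes left and a threshold of 0.05. Levels are TMM-normalised CPM. The floor of 3 counts is over library totals and covers counting error only. Intervals of 95% are unadjusted, and p-values measure the spread between these libraries. All 6 libraries differed by more than sampling noise (lowest chi-square over degrees of freedom 11.1).

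The members, gene lists and start comparison were chosen with earlier results of these data known. Every member is named, with values in each library at a mean of at least 20 CPM. Up to 3 genes with the smallest adjusted p are named from each companion list. All inner snoRNAs that passed the filter are named, and all neighbours on a single row that did. Others named were chosen after their values were seen. Alternatives were DESeq2 size factors, library totals only, DESeq2 1.42.0, limma-voom 3.58.1, no filter, a minimum of 5 CPM in 3 libraries, omission of each library, and the replicate number as a block.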

Additional observations from a re-analysis of the deposited data

How the results depend on the processing

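No host RNA was called under any of the 13 alternatives, of which 6 left out a library, and the smallest adjusted p of a host over them was 0.0624 (SNHG19 without CM-Vector replicate 1). The number of all genes called, 72, was 207 with DESeq2, 249 without a filter and 155 with the replicate block. It was 18 to 314 when 1 library was left out, with 314 called without CM-Vector replicate 1, 44 without CM-Vector replicate 2, 46 without CM-Vector replicate 3, and 34, 18 and 43 without CM-MLKL replicates 1, 2 and 3. The 1 call among the other long non-coding RNAs (H19) ranged from 0 to 1, and was lost without CM-MLKL replicate 2 at a log2 fold change of -3.78.

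The sign of the log2 fold change was the same in every setting for 14 of 23 hosts, 11 below 0 and 3 above, and changed in 1 or more for 9. SNHG11 was at 0.0137 with DESeq2 size factors, 0.0133 with DESeq2 and 0.0110 without a filter. SNHG14 was at 0.0499 with limma-voom and 0.0555 with the replicate block. With 1 library left out, the ranges were -0.25 to 0.0356 for SNHG15, -0.40 to 0.0386 for SNHG16, -0.25 to 0.0240 for SNHG8, -0.24 to 0.0455 for EPB41L4A-AS1 and -0.57 to 0.19 for SNHG3. They were -0.14 to 0.10 for SNHG11, -0.41 to 0.65 for SNHG14, -0.55 to 0.19 for SNHG9 and -1.22 to 0.0552 for SNHG21. Without CM-Vector replicate 2, SNHG16, SNHG8, EPB41L4A-AS1 and SNHG3 lay above 0. Without CM-Vector replicate 1, 14 of 23 hosts lay further below 0, a count not made over all genes. The cause was not tested.

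Among the other genes, the ranges with 1 library left out were -1.27 to 0.44 for NOP58, -0.72 to 0.37 for NOP56, -1.18 to 1.18 for TGS1, -0.99 to 0.13 for NORAD, -1.59 to 0.38 for ZBTB37, -0.94 to 0.70 for ZNFX1 and -0.27 to 0.12 for UBE3A, each with its highest value without CM-Vector replicate 1. For neighbours near 0 they were -0.0935 to 0.15 for TRNAU1AP, -0.47 to 0.77 for AL590560.1, -0.31 to 0.16 for SIL1, -0.0311 to 0.27 for SLC3A2, -0.42 to 0.0727 for GLRX5 and -0.0291 to 0.43 for TRAF7. TRNAU1AP was at -0.0196 with library totals and -0.0122 with the 5 CPM filter, and SIL1 at 0.0179 with limma-voom and 0.0114 with the replicate block.

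Replicate numbers showed no clear pairing of the samples. Same-numbered libraries correlated in their deviations at 0.17, 0.17 and -0.31, and not every sample correlated best with its own number. Deviations from a mean of 3 libraries are tied to each other, so these values cannot exclude a pairing. In the block, 0 hosts were called, with a smallest adjusted p of 0.188. With 3 libraries a group, 11 of 23 intervals reached a 2-fold decrease, so a fall of that size was not excluded for these. Hosts under 5 CPM rest on few counts, and those at 14 counts or fewer could not be compared at this depth.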
